A study of Mus musculus with 18 samples.

Results

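Alpha-defensins are small antimicrobial peptides that Paneth cells at the base of small intestinal crypts store in granules and release into the crypt lumen. Lyz1 encodes the Paneth cell form of lysozyme, an enzyme that cuts the bacterial cell wall. The genes described here are the 10 with most counts in the small intestinal code among the 23 rows of the table named Defa plus a number (22 rows) or Lyz1, out of 53379 genes in all. They are Lyz1, Defa24, Defa30, Defa35, Defa17, Defa29, Defa5, Defa26, Defa34 and Defa27. They were chosen by their counts summed over both treatment groups, so their high level in these libraries is a description and is not tested. They held 1218998 counts over the 6 libraries, and the first 4 of them held 96.1% of that sum.

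The study measured RNA by sequencing in 18 libraries from female BALB/cJ mice aged 6 to 8 weeks, taken 7 days after lethal irradiation and transplantation. Both groups had the irradiation and 10000000 bone marrow cells. The group called BMT also received 1000000 T cells, and the group called BM received the marrow without them. Epithelial fractions of both parts of the intestine and bulk liver were taken, as 3 BMT and 3 BM libraries of every tissue. The labels do not name the strain of the cell donors, and a mouse without irradiation and transplantation is not part of these groups.

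The 2 names of each intestinal library contradict each other. The 6 libraries with the code SI in their descriptions are titled large intestine, and the 6 with the code LI are titled small intestine. In the code SI libraries the distal homeobox gene Hoxb13 had 0 counts in all 6. In the code LI libraries Hoxb13 stood at 105 ± 61.2 CPM (library counts scaled to a common total of 1000000) in BMT and 159 ± 16.6 CPM in BM (SD, n = 3 each). Fabp6, of ileal bile acid uptake, stood at 2845 ± 1441 CPM in BMT and 8235 ± 1526 CPM in BM in code SI, and at no more than 11.9 CPM in any code LI library. The region genes therefore ran with the codes and against the titles, and the libraries are called code SI and code LI throughout. Each library held 18845483 to 25610937 counts, so that 3 counts, taken as the floor of detection, stood at 0.117 to 0.159 CPM. Floors cover counting error only.

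Defa genes arose by repeated duplication, and inbred strains differ in which copies they carry, so the sequence of each copy decides what its count can mean. The 9 Defa members lie between positions 21065038 and 21735471 of chromosome 8 on GRCm38, with 8 on the plus strand and Defa29 on the minus strand. Lyz1 lies on chromosome 10 from 117287797 to 117292868, minus strand. The stretches below are the last 108 coding bases of the members on which the results turn, stop codon included, read from the GENCODE annotation and transcripts of GRCm38, 5′ to 3′. The capitals are in-frame cysteine codons. They are shown because the mature peptide is encoded at this end and because some copies, such as Defa24 and Defa30, are nearly identical there.
Defa24 (chr8:21735270-21735377, plus strand): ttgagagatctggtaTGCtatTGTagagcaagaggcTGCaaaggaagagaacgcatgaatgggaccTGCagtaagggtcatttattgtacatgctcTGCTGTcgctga
Defa30 (chr8:21135396-21135503, plus strand): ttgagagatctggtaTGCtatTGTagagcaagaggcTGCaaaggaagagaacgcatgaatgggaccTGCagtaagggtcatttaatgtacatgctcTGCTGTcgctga
Defa17 (chr8:21656534-21656641, plus strand): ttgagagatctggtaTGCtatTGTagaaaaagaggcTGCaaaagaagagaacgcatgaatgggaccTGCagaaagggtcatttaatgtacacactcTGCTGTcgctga
Defa35 (chr8:21065801-21065908, plus strand): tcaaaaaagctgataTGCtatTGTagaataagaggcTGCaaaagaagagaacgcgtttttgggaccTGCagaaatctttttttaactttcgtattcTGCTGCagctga
Defa26 (chr8:21618775-21618882, plus strand): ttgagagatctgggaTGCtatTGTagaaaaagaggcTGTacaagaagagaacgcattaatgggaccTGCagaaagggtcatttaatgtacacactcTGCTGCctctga
Defa29 (chr8:21325999-21326106, minus strand): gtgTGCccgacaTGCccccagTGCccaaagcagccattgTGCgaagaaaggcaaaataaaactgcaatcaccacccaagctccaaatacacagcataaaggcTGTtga

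Defa24 and Defa30 differed at 1 of these 108 bases, and Defa24 and Defa17 at 7. Defa5 and Defa34 were identical to Defa35 over the whole stretch, with 0 differing bases. Defa29 was the odd member. It differed from Defa24 at 79 bases, counted position by position from the stop codon without alignment, which can overstate the distance. Aligned over their coding sequences, Defa29 and Defa24 were 67.6% identical. The coding sequence of Defa29 was 351 bases long against 282 in Defa24, and it held 11 cysteine codons against 6. Its nearest relative was Gm14851, which differed at 2 of the 108 bases and which RefSeq names Defa38. Defa27 had the shortest annotated coding sequence, 201 bases.

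Sharing of longer sequence limits which single-gene counts can be trusted. Every stretch of 100 bases, the length of one read of a pair, was taken from the annotated transcripts of each gene and looked for, on both strands, in the transcripts of all other genes. Defa24 shared 0% of its stretches, Defa30 0.334%, Defa26 1.10% and Lyz1 2.06%, the last with Lyz2, the lysozyme gene of macrophages and neutrophils. Defa27 shared 10.8%, Defa29 11% (with Gm14851) and Defa35 23.4% (most with Defa36). Defa34 shared 75%, Defa5 88.1% (most with Defa34) and Defa17 90.6% (most with Defa3). No label says how reads that fit several genes were counted. The counts of Defa17, Defa5 and Defa34 are therefore uncertain as single-gene values, and those of Defa35, Defa29 and Defa27 less so. Only exact matches counted as shared, so these percentages miss stretches that differ at single bases. Defa24 and Defa30 were 98.6% identical over their coding sequences, and whether reads moved between them was not tested. Of the 13 other rows of the family, 6 had 0 counts in all 6 libraries. Reads came from BALB/cJ mice and were placed on the reference of another strain, and whether a row at 0 is an absent gene, an unexpressed gene or a gene without reads of its own cannot be told apart.

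**Figure D1:**
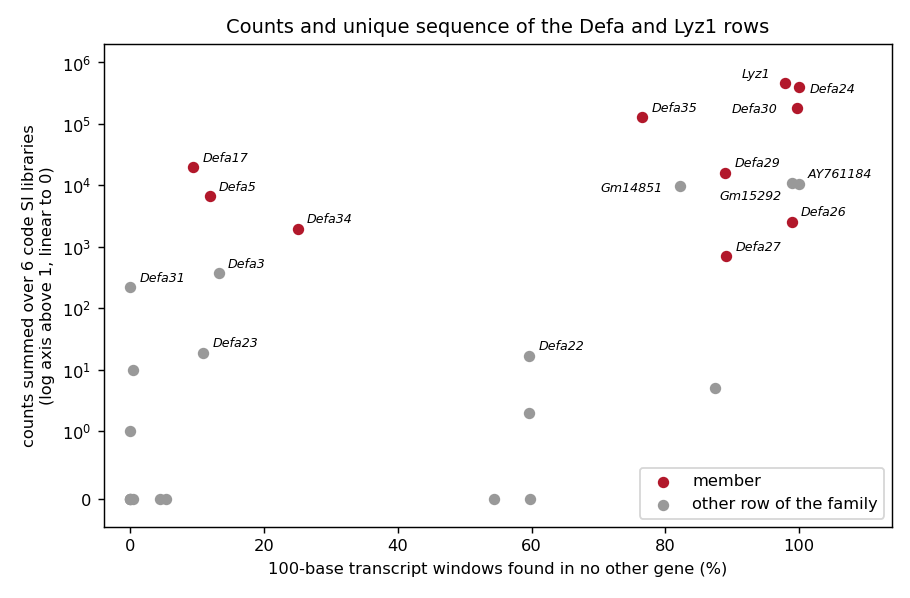
Counts summed over the 6 code SI libraries (vertical log axis, linear below 1) against the percentage of 100-base transcript stretches found in no other gene (horizontal axis), with 1 point per gene of the family. Lyz1, Defa24 and Defa30 combine the most counts with at least 97.9% of stretches of their own, while Defa17, Defa5 and Defa34 have 9.4 to 25.0%.

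Promoter sequence was available from RefSeq (GRCm38.p6) for 3 of the 10 genes, Lyz1, Defa30 and Defa35. The windows of both defensins run from 250 bases before to 50 bases after the start site and are shown because these genes moved together in the libraries below. The capitals mark the promoter core TATAAA and the letters ATCAAAG. These letters read CTTTGAT on the other strand, one of the cores bound by TCF transcription factors of the Wnt pathway.
Defa30 promoter (chr8:21134400-21134699, plus strand): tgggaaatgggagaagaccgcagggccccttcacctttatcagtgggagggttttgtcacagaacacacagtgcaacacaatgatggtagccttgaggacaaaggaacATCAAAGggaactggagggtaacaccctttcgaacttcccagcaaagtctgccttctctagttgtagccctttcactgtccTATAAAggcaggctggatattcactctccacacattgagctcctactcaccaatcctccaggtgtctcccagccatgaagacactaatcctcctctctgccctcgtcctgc
Defa35 promoter (chr8:21064788-21065087, plus strand): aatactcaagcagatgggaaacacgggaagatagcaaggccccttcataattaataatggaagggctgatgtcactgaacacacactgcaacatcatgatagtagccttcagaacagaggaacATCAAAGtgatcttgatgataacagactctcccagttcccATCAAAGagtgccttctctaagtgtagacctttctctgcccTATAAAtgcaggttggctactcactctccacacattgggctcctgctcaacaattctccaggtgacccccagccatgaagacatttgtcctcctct

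The 2 windows were 72.7% identical. TATAAA began at position -61 in Defa30 and at -46 in Defa35, and CTTTGAT lay on the reverse strand at -142 in Defa30 and at -127 and -87 in Defa35. Both motifs, and in addition the related core CTTTGAA, were searched on both strands, and their matches do not overlap each other in these windows. Of all 32851 promoter windows of the same length, 13.6% held TATAAA on either strand. The core CTTTGAA was present in 5.14% of them and absent here. The core CTTTGAT was present in 3.73%. None of the motifs was found in the Lyz1 window. These matches describe letters only.

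All 10 genes were lower in the BMT than in the BM libraries of code SI. Together they made up 0.179, 0.340 and 0.311% of all counts in the BMT libraries, against 1.87, 1.69 and 1.26% in the BM libraries. No BMT library reached any BM library, and the mean share was 5.82-fold higher in BM. Single genes fell by between 1.70 on the log2 scale for Defa17 and 4.41 for Defa29. All 10 passed the test of edgeR's quasi-likelihood fit with Benjamini-Hochberg adjustment over all 14621 genes tested, with adjusted p of 8.17e-06 to 0.00195, while 11.8% of all genes tested were called lower. Their median log2 fold change, BMT over BM, was -2.84, beside 0.02 over all genes tested. Groups did not overlap for any of the 10 genes, while for 22.9% of all genes tested every BMT library was lower than every BM library. In a tissue extract, fewer Paneth cells and less RNA per Paneth cell cannot be told apart. Mitochondrial genes took 4.83 to 6.01% of counts in BMT and 7.30 to 8.63% in BM, and with those genes removed from the totals the ratio of shares was 5.99.

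Nearly all of the signal came from Lyz1, Defa24, Defa30 and Defa35. Lyz1 (ENSMUSG00000069515.6) had 790.0, 1241 and 718 CPM in the BMT libraries, against 7191, 6661 and 4860.0 CPM in the BM libraries. The highest BMT library was below the lowest BM library by several fold, and the log2 fold change was -2.73 ± 0.26 (SE; edgeR adjusted p = 3.8e-05). Lyz2, the form of macrophages and neutrophils, stood at 4.02 ± 2.93 CPM in BMT and 3.13 ± 1.11 CPM in BM (SD, n = 3 each), with a log2 fold change of 0.38 ± 0.47 and edgeR adjusted p = 0.600, and of -0.35 without BMT replicate 1. Defa24 (ENSMUSG00000064213.5) had 659.9, 1425 and 1603 CPM in BMT and 6074, 4992 and 3590.4 CPM in BM. BMT replicate 1 was the lowest by more than the other 2 BMT libraries differed, and the BM libraries were spread as well. The log2 fold change was -1.94 ± 0.34 (edgeR adjusted p = 0.00195), the second smallest fall of the 10.

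Defa30 (ENSMUSG00000074444.4) is the near copy of Defa24 and is located apart from it on the chromosome, from 21134642 to 21135598 against 21734494 to 21735471. It had 142, 296 and 399.5 CPM in BMT, against 2916, 2692 and 2118 CPM in BM. Its log2 fold change was -3.15 ± 0.35 (edgeR adjusted p = 0.000112), and the groups lay far apart. Defa35 (ENSMUSG00000061845.3), of the group with Defa5 and Defa34, had 140.2, 313 and 271 CPM in BMT and 1876, 1927 and 1492 CPM in BM. The BM libraries lay close together, the BMT libraries were all low, and the log2 fold change was -2.82 ± 0.29 (edgeR adjusted p = 6e-05).

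**Figure D2:**
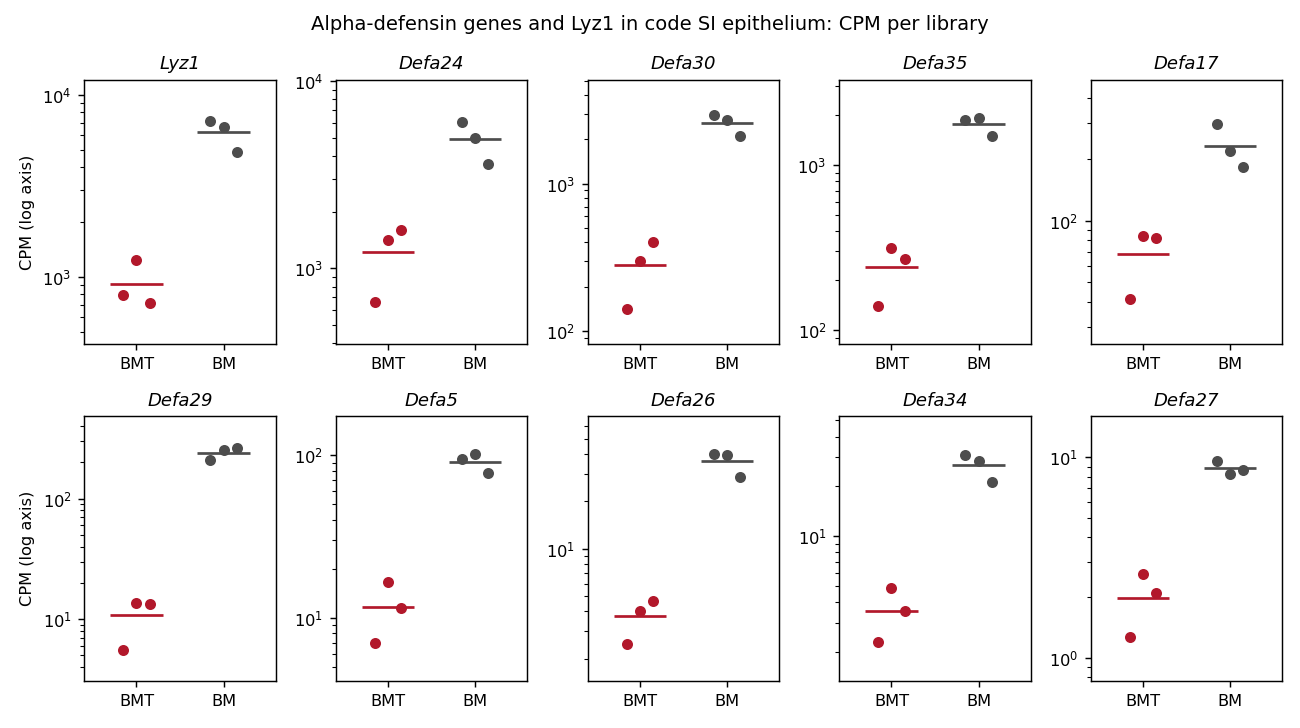
CPM (log axis) of each of the 10 genes in the 3 BMT and 3 BM libraries of code SI, with 1 point per library and a line at the group mean; each panel has its own scale. In every panel all BMT points lie below all BM points, as for Lyz1 at 718 to 1241 against 4860.0 to 7191 CPM.

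Among the less abundant genes, Defa29, a cryptdin-related gene whose product differs in its cysteine pattern from the classical alpha-defensins, stood apart by size. It had 5.57, 13.5 and 13.4 CPM in BMT, against 208, 252 and 265 CPM in BM, and a log2 fold change of -4.41 ± 0.31 (edgeR adjusted p = 8.17e-06). The BM libraries were 21.3-fold higher by the fit, and no other of the 10 genes reached 10-fold. Defa26 had 2.49, 4.03 and 4.67 CPM in BMT and 40.3, 39.4 and 28.6 CPM in BM, with -3.21 ± 0.27 (edgeR adjusted p = 1.73e-05). Both groups were tight relative to the gap between them.

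Defa5 and Defa34, whose reads cannot be kept apart with certainty, gave nearly the same change. Defa5 had 7.00, 16.5 and 11.5 CPM in BMT, against 94.3, 101 and 77.4 CPM in BM (-2.91 ± 0.27, edgeR adjusted p = 3.8e-05). Defa34 had 2.28, 4.85 and 3.51 CPM in BMT, against 31.0, 28.4 and 21.3 CPM in BM (-2.87 ± 0.28, edgeR adjusted p = 4.69e-05). Both sets of values were highest in BMT replicate 2 within BMT and lowest in BM replicate 3 within BM. Defa17, which shares most of its sequence with Defa3, had 41.1, 83.8 and 82.1 CPM in BMT and 295, 219 and 183 CPM in BM. Its change of -1.70 ± 0.28 (edgeR adjusted p = 0.00157) was the smallest of the 10, although the groups still did not overlap. Defa27 was the least abundant, at 1.27, 2.62 and 2.10 CPM in BMT and 9.64, 8.23 and 8.69 CPM in BM, with -2.09 ± 0.29 (edgeR adjusted p = 0.000491). Its BM libraries agreed closely, and its BMT counts of 24, 61 and 49 were well above the floor.

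The same libraries tended to be low for most genes. Within BMT, replicate 1 had the lowest CPM for 9 of the 10 genes, with Lyz1, lowest in replicate 3, as the exception. Within BM, replicate 3 had the lowest CPM for 8 of the 10 genes, with Defa29 and Defa27 as the exceptions. The descriptions carry a number that differs between the 6 libraries of a tissue and recurs between tissues. It is read here as a mouse number, but the labels do not state that replicates are separate animals, so that p-values measure the spread between these libraries. BMT replicate 2 was sequenced on lane 1, per the column names, and the other 5 code SI libraries were not. All 10 calls were also made without it.

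Set against gene length, as TPM (length-scaled abundance, from the counts and the deposited lengths), Defa24 was the most abundant of the 10 at 7551 ± 3038 TPM in BMT and 26132 ± 5429 TPM in BM (SD, n = 3 each). In BM it was followed by Defa30 at 14555 ± 1745 TPM, and then by Lyz1 at 11098 ± 1758 TPM and Defa35 at 9994 ± 1144 TPM, which did not differ beyond their spread. In BMT Defa30 was at 1805 ± 832 TPM, Lyz1 at 1869 ± 566 TPM and Defa35 at 1559.6 ± 570.1 TPM, and their spread did not separate them. Defa17 came next in both groups, at 447 ± 154 TPM in BMT and 1311 ± 250.1 TPM in BM. Shared sequence leaves the places of Defa17, Defa5 and Defa34 in this order uncertain. In BM Defa29, at 1079 ± 186 TPM, was within the spread of Defa17, while in BMT it stood at 54.8 ± 22.7 TPM, below Defa17 and next to Defa5 at 79.9 ± 31.8 TPM. Defa26, Defa34 and Defa27 closed the order in both groups, Defa26 and Defa34 within each other's spread in BMT, and with Defa27 at 13.6 ± 4.51 TPM in BMT and 52.8 ± 2.42 TPM in BM.

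Counts relative to Defa24 of the same library compare the genes with each other without library size. The Defa29 ratio was 0.00844, 0.00949 and 0.00834 in the BMT libraries, against 0.0342, 0.0504 and 0.0738 in the BM libraries, and its mean was 6.03-fold higher in BM. The Defa30 ratio was 0.215, 0.208 and 0.249 in BMT and 0.480, 0.539 and 0.590 in BM. For 6 of the 9 other genes the ratio was lower in every BMT library than in every BM library. Those were Defa29, Defa30, Defa26, Defa35, Defa5 and Defa34. The same held for 0.616% of all other genes tested. That share is low largely because Defa24 itself fell in BMT, so it cannot serve to weigh the 6 genes. Since Defa24 had the second smallest fall of the 10, ratios below those of BM follow in part from the choice of Defa24. Defa35, Defa5 and Defa34 also share sequence and are not separate cases. The Defa17 ratio was the reverse, at 0.0623, 0.0588 and 0.0512 in BMT and 0.0486, 0.0438 and 0.0511 in BM, although its highest BM value and lowest BMT value nearly met. The Lyz1 and Defa27 ratios overlapped between groups, and Lyz1 itself varied more in BMT, with ratios of 1.20, 0.871 and 0.448, than in BM, with 1.18, 1.33 and 1.35. As a share of the counts of all 10 genes, Defa24 took 43.4 ± 7.49% in BMT and 30.1 ± 2.08% in BM, and Lyz1 34.6 ± 10.6% in BMT and 38.7 ± 0.555% in BM (SD, n = 3 each). These ratios were not tested, and Defa24 itself is lower in BMT. The Defa30 ratio also depends on reads of these near copies being placed apart.

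**Figure D3:**
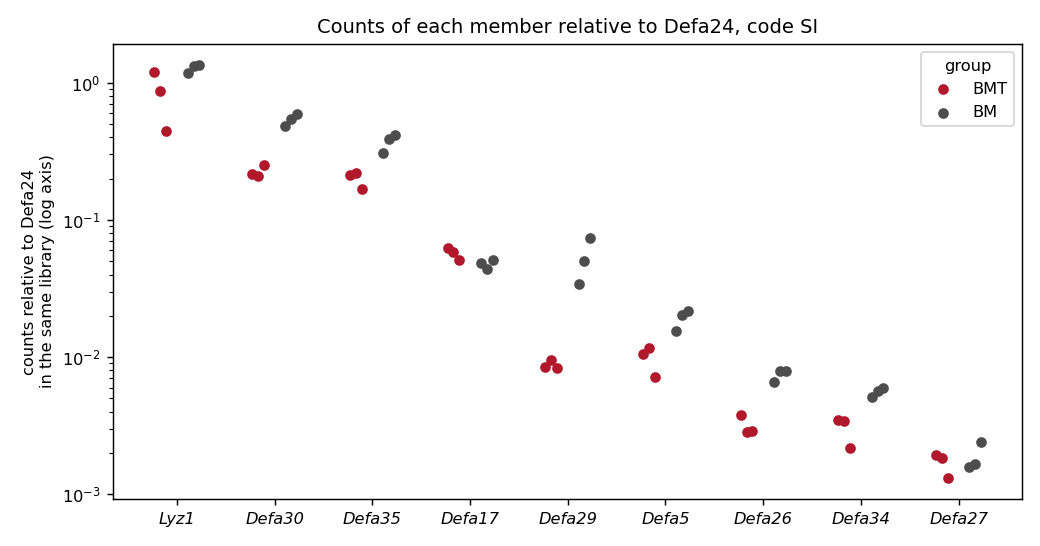
Counts of each of the other 9 genes divided by those of Defa24 in the same library (log axis), with 1 point per code SI library, BMT left and BM right for each gene. The Defa29 ratios show the widest gap, 0.00834 to 0.00949 in BMT against 0.0342 to 0.0738 in BM, while the Defa27 ratios overlap.

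The limit between the 10 genes and the rest of the family fell where counts were low. Defa27, the last inside, had 698 counts over the 6 libraries, and the 2 rows just outside were Defa3 with 374 and Defa31 with 222. Defa3 and Defa31 were at 1.26 ± 0.436 and 0.724 ± 0.305 CPM in BMT, and at 4.52 ± 0.800 and 2.69 ± 0.689 CPM in BM. Of the remaining 11 rows, 5 had 1 to 19 counts and 6 had 0. Some rows that RefSeq names as alpha-defensins carry another symbol in the table used for names. Of these, Gm15292 (Defa40) had 10735 counts, AY761184 (Defa39) 10616 and Gm14851 (Defa38) 9725, which would place them at ranks 7, 8 and 9. Gm14851, the near copy of Defa29, had 4.93, 11.7 and 17.4 CPM in BMT, against 161, 137 and 122 CPM in BM. Its log2 fold change of -3.56 ± 0.38 (edgeR adjusted p = 7.75e-05) was between those of Defa29 and Defa26. The log2 fold changes of the other rows were -2.22 ± 0.39 for Gm15292, -2.48 ± 0.41 for AY761184, -1.79 ± 0.32 for Defa3 and -1.82 ± 0.39 for Defa31, all called lower by edgeR with adjusted p of 0.00141 to 0.00722.

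In the code LI libraries the 10 genes were close to absent. They held 536 counts over 6 libraries, and Defa26, Defa27 and Defa29 had 0 counts in each. Lyz1 had 11, 2 and 1 counts in BMT, against 14, 12 and 131 counts in BM. Defa24 had 56, 39 and 20 counts in BMT, against 19, 29 and 138 counts in BM. BM replicate 3 thus held most of the BM counts of both genes, and the same library held 31 counts of Defa35, 18 of Defa30 and 11.9 CPM of the ileal gene Fabp6, the highest of the 6. Only Lyz1 and Defa24 passed the filter on low counts. Lyz1 had a log2 fold change of -3.32 ± 0.98 (edgeR adjusted p = 0.0199), in a comparison where 21% of all genes tested were called lower and 20.4% higher. That call was lost without BM replicate 3, where the change was -1.51 (edgeR adjusted p = 0.159), and without BMT replicate 2 (-2.91, edgeR adjusted p = 0.0732). Defa24 was at -0.58 ± 0.59 (edgeR adjusted p = 0.457), and without BM replicate 3 its value lay on the other side of 0, at 0.62 (edgeR adjusted p = 0.302).

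The difference of the BMT effect between the intestinal sets was tested for both genes with the number of the descriptions, read as a mouse number, as a block. It was 0.22 ± 1.04 for Lyz1 (edgeR adjusted p = 0.933) and -1.67 ± 0.80 for Defa24 (edgeR adjusted p = 0.241), code SI minus code LI on the log2 scale, in a fit where 3.8% of all genes tested had a called difference below 0 and 3.12% one above 0. Without BM replicate 3 in both sets, the Defa24 difference was -2.87 (edgeR adjusted p = 0.0296) and the Lyz1 difference -1.42 (edgeR adjusted p = 0.374). Over 9 alternatives the Lyz1 difference ran from -1.42 to 1.86, so that its direction is not settled. For the other 8 genes the code LI counts were too few for a difference to be read. In bulk liver the 10 genes had 20 counts over 6 libraries, 8 of them had 0, and none passed the filter. Lyz1 made up 9, 1 and 4 counts in BMT and 0, 0 and 5 counts in BM, so that a difference was not detectable at this depth.

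**Figure D4:**
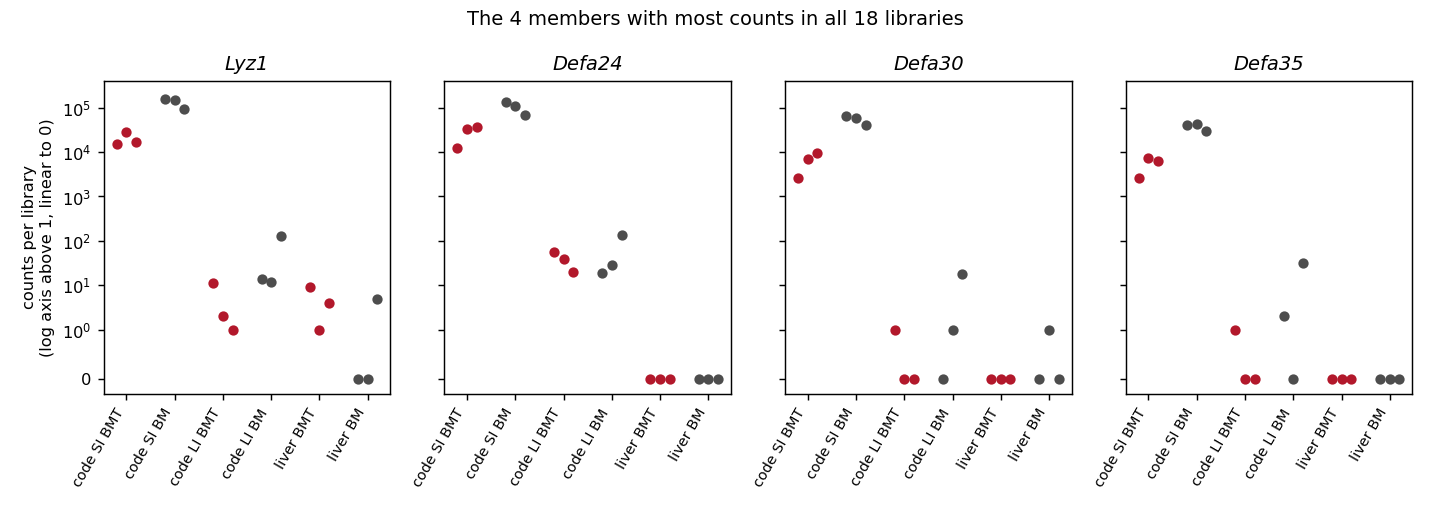
Counts per library (log axis, linear below 1) of the 4 genes with most counts, in the BMT and BM libraries of code SI, code LI and liver, with 1 point per library. Code SI libraries hold at least 12437 counts of Lyz1 and Defa24 each, and no code LI or liver library holds more than 138.

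Other products of Paneth cells did not all move with the defensins. From a list of 15 such genes, 0 were called higher and 8 lower in code SI (edgeR; 11.6 and 11.8% of all genes tested), with a median log2 fold change of -0.99 beside 0.02 over all genes. Pla2g2a, a secreted phospholipase with antibacterial action, had 1139, 2004 and 1626 CPM in BMT, against 6000.0, 5833 and 4682 CPM in BM (-1.75 ± 0.24, edgeR adjusted p = 0.00043). Mmp7, the protease that processes mouse pro-alpha-defensins to their active form, had 178, 291 and 218 CPM in BMT, against 522, 488 and 413 CPM in BM (-1.01 ± 0.20, edgeR adjusted p = 0.0042). Neither gene overlapped between the groups. The stress-response gene Nupr1 fell by 1.86 on the log2 scale (SE 0.26, edgeR adjusted p = 0.000447), and Copz2, Habp2, Clps, Thbs1 and Kcnn4 were the other 5 called lower. The call of Clps, which encodes colipase, was lost without BM replicate 1 (edgeR adjusted p = 0.0811), without BMT replicate 2 (0.0832) and with DESeq2 (0.0517).

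Ang4, an antimicrobial ribonuclease, had 226, 361 and 557 CPM in BMT and 499, 317 and 225 CPM in BM, so that the groups overlapped fully (0.19 ± 0.35, edgeR adjusted p = 0.742). Its value was -0.05 without BM replicate 3 and -0.23 without BMT replicate 3. Itln1, an intestinal lectin made by Paneth and goblet cells, had 496, 1231 and 2249.7 CPM in BMT and 3231, 2747 and 2261 CPM in BM. Its BMT libraries were widely spread (-0.99 ± 0.43, edgeR adjusted p = 0.123), and without BMT replicate 3 it passed, with -1.66 and edgeR adjusted p = 0.00731. It also passed with no filter on low counts (edgeR adjusted p = 5.17e-06), although its value there was again -0.99. Mptx2, a mucosal pentraxin, was at -0.86 ± 0.40 (edgeR adjusted p = 0.152, but 0.0312 without BMT replicate 3 and 3.66e-05 with no filter). Mptx1 gave -1.07 ± 0.51 (edgeR adjusted p = 0.158, but 0.0430 without that library and 1.91e-07 with no filter). Pnliprp2, Slc30a2 and Nos1ap, at -0.20, -0.11 and -0.10 on the log2 scale, were not called, and leaving out 1 library turned the sign of Pnliprp2 and Nos1ap, to at most 0.11 and 0.08. Whether Ang4 and the defensins differ in their change was not tested.

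**Figure D5:**
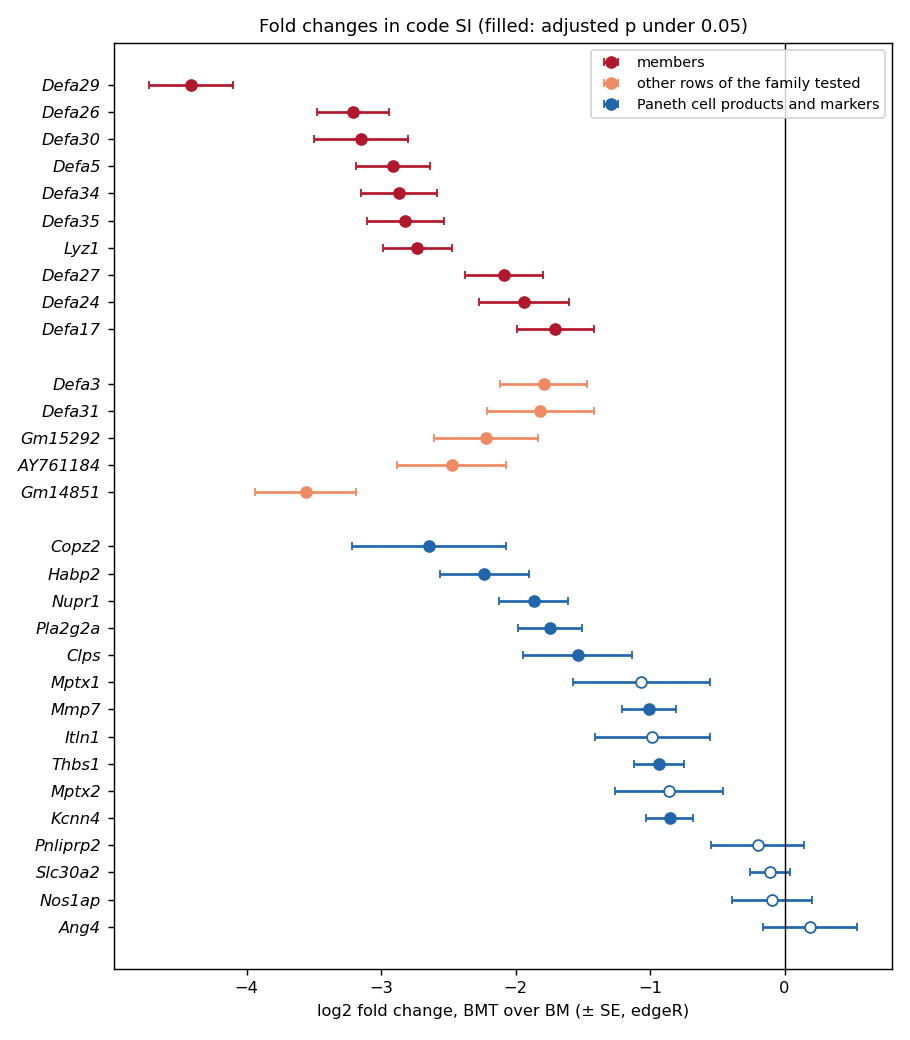
Log2 fold changes, BMT over BM, in code SI with standard errors from edgeR (horizontal axis) for the 10 genes, for 5 further rows of the family and for the 15 Paneth cell products; filled points passed an adjusted p of 0.05 and open points did not. The 10 genes run from -4.41 (Defa29) to -1.70 (Defa17), and the Paneth cell products from -2.64 (Copz2) to 0.19 (Ang4).

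Among transcription factors and sensors of the Paneth lineage, 8 of 16 genes tested were called lower and 1, Ripk2, higher by edgeR. Over all genes tested, 11.8% were called lower and 11.6% higher. The median log2 fold change of these 16 factors and sensors was -0.48. Whether they differ from the defensins in their change was not tested. The 8 lower calls came to 4 without BM replicate 2 or BM replicate 3 and to 5 without BM replicate 1 or BMT replicate 1, and in each of these the Ripk2 call was lost (edgeR adjusted p of 0.0607 to 0.0829), as it was with the replicate block (0.0543). Sox9, which Paneth cells need to form, was at -1.22 ± 0.16 (edgeR adjusted p = 0.000386), and Bhlha15, a factor of secretory granule assembly, at -1.55 ± 0.21 (edgeR adjusted p = 0.000453). Xbp1, of the unfolded protein response, was at -0.53 ± 0.15 (edgeR adjusted p = 0.0244), and Atoh1, which sets the secretory fate, at -0.49 ± 0.15 (edgeR adjusted p = 0.0375). Both calls were weak. The Xbp1 call was lost without any of BM replicates 1, 2 and 3 and BMT replicate 1 (edgeR adjusted p up to 0.0992), and the Atoh1 call without any of BM replicates 1, 2 and 3 and BMT replicates 1 and 2 (up to 0.122), and also with all 18 libraries in 1 fit (0.0613) and with the replicate block (0.0723). Tcf7l2, the Wnt pathway factor whose binding core was searched above, was at 0.08 ± 0.20 (edgeR adjusted p = 0.803), and at -0.11 without BMT replicate 3. Spdef, at -0.34 ± 0.16 (edgeR adjusted p = 0.166), and the bacterial sensor gene Nod2, at 0.63 ± 0.41 (edgeR adjusted p = 0.305), were not called. Nod2 passed without BMT replicate 3, with edgeR adjusted p = 0.0470.

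Of 5 niche signals tested, 3 were called lower by edgeR and 0 higher (11.8 and 11.6% of all genes tested). Wnt3, a Wnt ligand that Paneth cells secrete, was at -1.28 ± 0.20 (edgeR adjusted p = 0.00114) and the Notch ligand gene Dll1 at -1.02 ± 0.16 (edgeR adjusted p = 0.00121). Among 11 other antimicrobial genes tested, 4 were called lower and 2 higher, beside the same shares of all genes tested. Only 1 was called higher without BMT replicate 2 and with all 18 libraries in 1 fit. Reg3g, a lectin that kills gram-positive bacteria, had 186, 615 and 677 CPM in BMT, against 5359, 4607 and 6244 CPM in BM (-3.40 ± 0.42, edgeR adjusted p = 0.000232). Its change was in the range of the defensins, and BMT replicate 1 was again the lowest. Nos2 was at -1.50 ± 0.15 (edgeR adjusted p = 6.33e-05). Retnlb, a goblet cell antimicrobial, was at 1.58 ± 0.68 (edgeR adjusted p = 0.121, but 0.0269 without BM replicate 1 and 1.76e-12 with no filter on low counts).

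Markers of other epithelial and immune cells moved in the same libraries, and their part in the defensin result was not tested. Over all genes tested, 11.8% were called lower and 11.6% higher by edgeR. For the lists of Paneth products, niche signals and the stem, goblet, enteroendocrine, tuft and T cells, a count of 0 in a direction stands for 0 genes with an unadjusted p under 0.05 in that direction too, by edgeR and by DESeq2. Of 14 stem cell genes tested, 10 were called lower and 0 higher by edgeR, and the summed level of the list was 805 to 893 CPM in BMT and 2084 to 2462 CPM in BM. Lgr5, at -1.59 ± 0.18, and Olfm4, at -1.72 ± 0.17, mark crypt base stem cells (edgeR adjusted p = 0.000104 and 5.4e-05). Of 10 goblet cell genes, 7 were called lower and 0 higher, with Zg16 at -1.91 ± 0.26, Spink4 at -1.79 ± 0.31 and the mucin gene Muc2 at -1.56 ± 0.33. That list summed to 4365 to 8481 CPM in BMT and 11041 to 14302 CPM in BM. Of 12 enteroendocrine genes, 10 were lower and 0 higher, with the hormone genes Gcg at -2.33 ± 0.33 and Nts at -2.26 ± 0.37, and a summed level of 86.3 to 184 CPM in BMT and 505 to 664 CPM in BM.

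The lists that follow stand beside 11.6% of all genes tested called higher and 11.8% called lower by edgeR. Enterocyte genes were divided. Of 14 tested, 7 were called higher and 3 lower by edgeR, with Mttp at 1.28 ± 0.16 and Apoa4 at 2.91 ± 0.39, both of lipid export, and the brush border gene Alpi not called at 0.40 ± 0.24 (edgeR adjusted p = 0.252). The 7 higher calls came to 3 without BM replicate 2, where Apoa1, Sis, Slc5a1 and Anpep were lost (edgeR adjusted p of 0.0734 to 0.144), and to 4 without BM replicate 3, and the 3 lower calls came to 1 without BM replicate 1. The list summed to 23495 to 35624 CPM in BMT and 20958 to 25032 CPM in BM, so that its ranges overlapped. Of 7 tuft cell genes tested, 5 were called higher and 0 lower, with the channel gene Trpm5 at 3.50 ± 0.42 and Sh2d6 at 3.42 ± 0.45, and the list summed to 22.2 to 46.2 CPM in BMT and 2.40 to 8.50 CPM in BM. All 11 T cell genes were called higher, with a summed level of 182 to 275 CPM in BMT and 4.30 to 13.0 CPM in BM. Thy1 was at 47.3 ± 9.28 CPM in BMT and 0.267 ± 0.0919 CPM in BM (SD, n = 3 each), and Cd2 at 11.3 ± 2.25 CPM in BMT and 0.017 ± 0.0295 CPM in BM. Of 6 macrophage, monocyte and neutrophil genes tested, Ly6c2 was called higher (6.49 ± 2.30 CPM in BMT and 0.273 ± 0.164 CPM in BM) and Itgam lower (-1.14 ± 0.32, edgeR adjusted p = 0.0254), and the list summed to 22.1 to 36.0 CPM in BMT and 17.6 to 27.0 CPM in BM, with Mpo and Elane at 0 counts in BM. The Itgam call was lost without BM replicates 1 or 3 or BMT replicates 1 or 2 (edgeR adjusted p of 0.0603 to 0.0855) and with all 18 libraries in 1 fit (0.107). The 7 small intestine region genes tested are all on the enterocyte list too, so their calls repeat calls counted there. Of these 7, 4 were called higher and 1, Fabp6, lower. The Fabp6 call was lost without BM replicate 1 (edgeR adjusted p = 0.0602), and 2 were lower without BMT replicate 1. Of the large intestine region list, Car1 was not called (edgeR adjusted p = 0.0927) and passed without BM replicate 3 (edgeR adjusted p = 0.00100). It also passed with no filter on low counts (edgeR adjusted p = 1.7e-30) and with all 18 libraries in 1 fit (0.0475).

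Several genes outside the family followed the defensins closely from library to library. Over the 6 code SI libraries, the genes whose log2(CPM + 1) had the highest Pearson correlation with that of the 10 genes summed were Pla2g2a (r = 0.998), Acad12 (0.998), Sdc4 (0.997), Ttc39a (0.997), Qsox1 (0.997), Paqr4 (0.996), Cpe (0.996), Slc35f2 (0.996), Fam174b (0.996) and Bbs2 (0.996), among 10283 genes with a mean of at least 5 CPM. These 6 points share their libraries and fall into the 2 treatment groups, and r is given as a description. Defa genes, Lyz1, AY761184 and gene models without a name (Gm, Rik or an ID alone) were counted among the 10283 but not ranked. Acad12 lost its call of a lower level in BMT without any of BM replicates 1, 2 and 3 and BMT replicate 1 (edgeR adjusted p of 0.0683 to 0.101) and with the replicate block (0.0638). The call of Slc35f2 was lost without BM replicate 1 (edgeR adjusted p = 0.0579) or BM replicate 2 (0.0513), and that of Ttc39a with all 18 libraries in 1 fit (0.0818). Bbs2 was not called (edgeR adjusted p = 0.0857) and passed with all 18 libraries in 1 fit (0.0427). The level of Pla2g2a was of the order of Lyz1, whereas Cpe, a carboxypeptidase of hormone-producing cells, was at 1.85 ± 0.958 CPM in BMT and 11.6 ± 1.55 CPM in BM (SD, n = 3 each).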

How the data were processed

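The authors deposited 1 table of raw counts per gene for 18 libraries, with a gene length column in bases. Per the submitters' processing notes, reads were handled with STAR 2.7.0e on GRCm38.p5, with featureCounts 1.6.3 and with FastQC 0.11.9, without a strand or multi-mapping setting. RNA was polyA-selected and prepared with a stranded kit, per the labels' protocols. Reads of BALB/cJ mice on another strain's reference and of near-identical copies can be lost or moved between genes.

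Gene IDs were named through a GRCm38 table (53274 matched; 0.00257% of counts unmatched). CPM used all counts of a library, and TPM also the deposited length. BMT was compared with BM per tissue by edgeR 4.0.16 (R 4.3.3), using filterByExpr, TMM factors and its quasi-likelihood F-test (two-sided), Benjamini-Hochberg adjustment and a threshold of 0.05. The standard error is the log2 fold change divided by the root of F. Alternatives included DESeq2 1.42.0. The fits were also run on simulated counts without a mouse effect, and no result here rests on those runs. No pair of replicates was a duplicate (chi-square per degree of freedom of at least 9.86).

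The genes described and the 13 lists (136 genes) were chosen with earlier results of these data known. Genes were named by these rules: all 10 members, 18 genes whatever their result, and the 2 called genes with the smallest p per list. The 10 closest correlates of the summed members, among named genes outside the family, were added by rule too. Positions are 1-based and from the annotation. Defa3, Defa31 and the rows under other names were added for the limit of the family, and Mptx1, Clps, Pnliprp2, Slc30a2, Nos1ap, Copz2, Habp2, Thbs1, Kcnn4, Ripk2, Sis, Slc5a1, Anpep, Apoa1, Hoxb13, Fabp6, Car1, Mpo and Elane were named after their values were seen. The result of 1 gene of the large intestine region list is not reported here.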

Additional observations from a re-analysis of the deposited data

Results flagged for a closer look

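The BMT effect in code SI was set against that in code LI for the Paneth cell products and for the other genes named above, by edgeR's test of the difference itself, with the number of the descriptions, read as a mouse number, as a block and adjustment over all 15815 genes tested. Each value is the effect in code SI minus that in code LI on the log2 scale, with its standard error. Over all genes tested, 3.8% had a called difference below 0 and 3.12% one above 0. Of the 15 Paneth cell products tested, 8 had a called difference, all 8 below 0. The other 7 had none (Mptx1, Mptx2, Clps, Habp2, Copz2, Thbs1 and Nos1ap), although Clps and Thbs1 passed in 2 of 9 alternatives each. In code LI alone, 6 of 14 products tested were called higher in BMT and 2, Thbs1 and Copz2, lower by edgeR (20.4 and 21% of all genes tested). Pnliprp2, a lipase-related gene, differed by -6.52 ± 0.50 (edgeR adjusted p = 3.7e-05) and Ang4 by -6.18 ± 0.56 (edgeR adjusted p = 0.000108). Ang4 had 568, 586 and 733 CPM in BMT and 5.50, 5.39 and 15.1 CPM in BM in code LI, so that its groups lay far apart there and overlapped in code SI. Itln1 differed by -4.03 ± 0.32 (edgeR adjusted p = 4.4e-05), Pla2g2a by -3.25 ± 0.23 (edgeR adjusted p = 3.19e-05), Slc30a2 by -2.77 ± 0.45 (edgeR adjusted p = 0.00354) and Mmp7 by -2.23 ± 0.26 (edgeR adjusted p = 0.000606). These 6 are the ones called higher in code LI. Nupr1 differed by -1.61 ± 0.32 (edgeR adjusted p = 0.0104, and 0.0521 without BM replicate 1 of both sets). Kcnn4 differed by -1.07 ± 0.21 (edgeR adjusted p = 0.0111, and 0.0501 and 0.0571 without BM replicate 1 and without BM replicate 3 of both sets).

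Of the other 38 named genes tested, 11 had a called difference below 0, 3 one above 0 and 24 none. Among the 24, Reg3g was just outside the threshold (1.77 ± 0.49, edgeR adjusted p = 0.0507) and passed in 5 of 9 alternatives. Lgr5, Retnlb, Mttp and Apoa4 passed in 2 of 9 each, and Olfm4, Zg16 and Spink4 in 1 of 9 each. Lyz2 differed by -3.10 ± 0.35 (edgeR adjusted p = 0.000409), with 54.3, 14.8 and 13.1 CPM in BMT and 1.99, 2.11 and 2.65 CPM in BM in code LI. Of the factors and antimicrobial genes, Nos2 differed by -4.07 ± 0.37 (edgeR adjusted p = 0.000108) and Bhlha15 by -2.24 ± 0.26 (edgeR adjusted p = 0.00056). The tuft cell genes Trpm5 and Sh2d6 differed by 4.55 ± 0.50 and 3.09 ± 0.58 (edgeR adjusted p = 0.000293 and 0.00803). The hormone gene Gcg differed by -1.60 ± 0.22 (edgeR adjusted p = 0.00149, and 0.0885 with no block). Among the closest correlates, Cpe differed by -1.99 ± 0.37 and Qsox1 by -1.40 ± 0.23 (edgeR adjusted p = 0.00771 and 0.00383). The differences of Itgam (-3.41 ± 0.85), Nts (-2.11 ± 0.55), Wnt3 (-1.68 ± 0.43), Muc2 (-1.50 ± 0.39), Sox9 (-0.88 ± 0.24) and Acad12 (1.09 ± 0.29) had edgeR adjusted p of 0.0331 to 0.0490, and each call was lost in at least 3 of the 6 fits that left out 1 replicate of both sets (edgeR adjusted p up to 0.189). With no block the calls of Muc2 (0.108) and Acad12 (0.0752) were lost too.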

How the results depend on the processing

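In code SI all 10 genes were called lower under each of the 13 alternatives, which were other scalings, no filter, DESeq2, all 18 libraries in 1 fit, the title number as a replicate block and leaving out each library. Their log2 fold changes ran from -4.63 to -1.42, with adjusted p of at most 0.0154. With the replicate block 10 genes were called in code SI and 1 in code LI. The title numbers do not pair the libraries, since deviations of same-numbered code SI libraries correlated at -0.06, -0.20 and 0.16 and the numbers in the descriptions differ between BMT and BM. Calls in code LI, 1 of 2 genes tested, came to 3 of 7 tested without a filter on low counts, to 2 of 10 tested with all 18 libraries in 1 fit, and to between 0 and 1 when 1 library was left out (0 without BM replicate 3 or BMT replicate 2). In these cases the cause was not tested. Of all values over single genes and alternatives, those of the 10 genes included, 2450 kept their side of the threshold, 113 lost a call and 64 gained one. The sign changed in 46 of them, over 29 results, each time when 1 library was left out and with no call on either side (0 called). The Defa24 difference between the sets also passed without a filter (edgeR adjusted p = 5.88e-08), at -1.67 as in the main fit. The values of Itln1, Mptx1, Mptx2 and Retnlb in code SI hardly moved without the filter either, while their adjusted p fell steeply. Calls gained by dropping the filter are therefore not to be read as stronger changes. Why p fell was not tested. The choice of genes with RefSeq's names was a further setting, chosen after seeing the data, and gave 10 calls. Leaving out the library of lane 1 is the fit without BMT replicate 2, already among the 13 alternatives. Low counts limit statements on code LI and liver, where most of the 10 genes were under 3 counts a library at depths like those of code SI. Shared sequence limits those on Defa17, Defa5 and Defa34, and the near identity of Defa24 and Defa30 limits their values as single genes.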
